A study of Mus musculus with 426 samples.

Results

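Chromosomes 7, 9, 10, 13 and 14 are 5 mouse autosomes whose DNA read share was low in cells of an orthotopic mouse pancreatic tumour. They were chosen because of that low share in these same data, so their DNA levels are given as a description and are not tested against normal cells. They hold 1216 of the 5000 genomic bins of the DNA table: 260 bins on chromosome 7, 246 on chromosome 9, 255 on chromosome 10, 227 on chromosome 13 and 228 on chromosome 14. RNA and genomic DNA had been amplified from the same single cells (GTO-seq), and the DNA reads were deposited as counts per bin.

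All tumours came from KPC1199-EGFP, a single mouse pancreatic cancer line that carries green fluorescent protein (GFP). Per the labels, 50000 of its cells were injected into the pancreas of C57BL/6 males aged 6 to 8 weeks, and tumours grew for 6 to 8 weeks. The 3 mice are therefore hosts of 1 line, not independent tumours, and a mouse number marks the same animal in every group. Peritoneum metastases gave GFP+ cells in each of the 3 mice, whereas kidney, liver and spleen metastases gave them in mice 2 and 3. From the primary tumours of the 3 mice, GFP+EpCAM+, EpCAM+, GFP+ and CD45+ cells were sorted, EpCAM being an epithelial surface protein and CD45 the surface protein shared by leukocytes. The EpCAM+ sort did not use GFP, so its cells need not be of the line, and the 6 other groups were sorted as GFP+. CD45+ cells stand for host leukocytes and serve as the reference. The 7 GFP+ or EpCAM+ groups are called tumour gates here.

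Mouse cells normally carry each autosome as a pair, and most solid tumours depart from that balance by gaining and losing whole chromosomes or arms during divisions in which chromosomes are missegregated. All mouse chromosomes have their centromere near the start of the map, so they have in effect a single long arm, and a missegregated chromosome moves as a whole. Pancreatic ductal adenocarcinoma is known for such aneuploidy. A chromosome lost early in the history of a line is carried by the cells that descend from it, whereas one lost late is carried by some of them.

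Of 420 single-cell libraries, 2 pairs from peritoneum of mouse 1 differed by less than sampling noise and were counted as 1 cell each, which left 418 cells. Cells with at least 50000 DNA reads were kept, 318 in all: 265 in the tumour gates and 53 in the CD45+ sort. They had 50522 to 3255873 reads, with a median of 584486, and the first cell below the limit had 48697. The 5 cells just inside the limit had a mean ratio of the 5 chromosomes, relative to CD45+ cells, of 0.745 to 0.907, and the 5 just outside it 0.766 to 0.910. Median depth by group ran from 339756 reads in liver to 898867 in CD45+ cells, and 23 of 33 liver cells fell below the limit. Leukocyte markers were at a median of 10258 CPM (RNA counts scaled to a common library total) per cell in the CD45+ sort, summed over 12 genes, and all 7 tumour gates had medians from 7.47 CPM (GFP+EpCAM+) to 339 CPM (kidney). Epithelial markers, summed over 10 genes, had medians of 17335 CPM in GFP+EpCAM+ and 10824 CPM in EpCAM+ cells, against 101.4 CPM in CD45+ cells.

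For each cell, the mean bin count of a chromosome was divided by the cell's mean over chromosomes 1 to 19. This ratio is a share of the cell's own autosomal DNA, which gives no absolute copy number. Dividing it by the CD45+ median of the same chromosome gives the relative ratio, and a relative ratio under 0.85 is called a loss. Losses were called in 36.7% of all pairs of a cell and an autosome in the tumour gates and in 5.76% in the CD45+ sort. On the 5 chromosomes these shares were 81.8% in the tumour gates and 8.30% in CD45+ cells, and on the other 14 autosomes they were 20.6% and 4.85%. Since the chromosomes were chosen on these values, nothing is read from that excess. By group, the share called on the 5 chromosomes was 89.2% in peritoneum, 140 of 200 pairs in kidney, 76.0% in liver, 78.6% in spleen, 89.6% in GFP+EpCAM+, 70.9% in EpCAM+ and 83.5% in GFP+ primary cells. Over all 19 autosomes it was 38.6%, 33.9%, 34.2%, 37.4%, 36.6%, 33.5% and 37.4% in the same groups.

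Chromosome 14 was the most often lost. Its ratio had a minimum of 0.528, a median of 0.742 and a maximum of 1.21 over the 265 tumour-gate cells, against 0.653, 0.981 and 1.11 over the 53 CD45+ cells. A loss was called in 234 tumour-gate cells (88.3%, exact 95% binomial interval 83.8% to 91.9%) and in 6 CD45+ cells (11.3%). The bulk of the 2 sorts lay apart, but single cells of either reached into the range of the other. Intervals on shares of cells cover counting error only, and the cells come from 3 mice.

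Chromosomes 10 and 13 followed closely. On chromosome 10 the ratio ran from 0.394 over a median of 0.751 to 1.09 in tumour-gate cells, against 0.566, 0.983 and 1.10 in CD45+ cells. A loss of chromosome 10 was called in 228 of the tumour-gate cells (86.04%) and in 5 of the CD45+ cells (9.43%). For chromosome 13 the values were 0.454, 0.791 and 1.24 in tumour-gate cells, against 0.605, 1.03 and 1.17 in CD45+ cells. There the loss was called in 226 tumour-gate cells (85.3%) and in 6 CD45+ cells (11.3%), and again the extremes of the 2 sorts overlapped.

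Chromosomes 9 and 7 were lost less often by count. Chromosome 9 had ratios of 0.241, 0.790 and 1.17 at the minimum, median and maximum in tumour-gate cells, against 0.761, 1.01 and 1.31 in CD45+ cells, and was lost in 214 (80.8%) and in 3 (5.66%) cells of these sorts. Chromosome 7 had ratios of 0.386, 0.802 and 1.24 in tumour-gate cells, against 0.839, 1.01 and 1.55 in CD45+ cells. It was lost in 182 tumour-gate cells (68.7%, interval 62.7% to 74.2%) and in 2 CD45+ cells (3.77%). Its median relative ratio of 0.796 lay nearest the threshold of the 5, and 79 tumour-gate cells lay within 0.05 of it on either side. The number of calls on chromosome 7 thus depends more on where the threshold stands than on the other 4, where 54 to 73 cells lay that close.

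The 5 were not set apart from all other autosomes. Ranked by the share of tumour-gate cells with a loss, they stood among 8 autosomes of which 3 are not in the set: chromosome 4 (84.9%), chromosome 12 (73.96%) and chromosome 18 (54.7%). The next autosome, chromosome 16, was lost in 18.1% of these cells. In a within-cell comparison that needs no threshold, the mean ratio of the 5 chromosomes over that of chromosome 1 had a median of 0.703 in tumour-gate cells and 1.01 in CD45+ cells. It was below 1 in 251 of 265 tumour-gate cells and in 24 of 53 CD45+ cells.

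**Figure D1:**
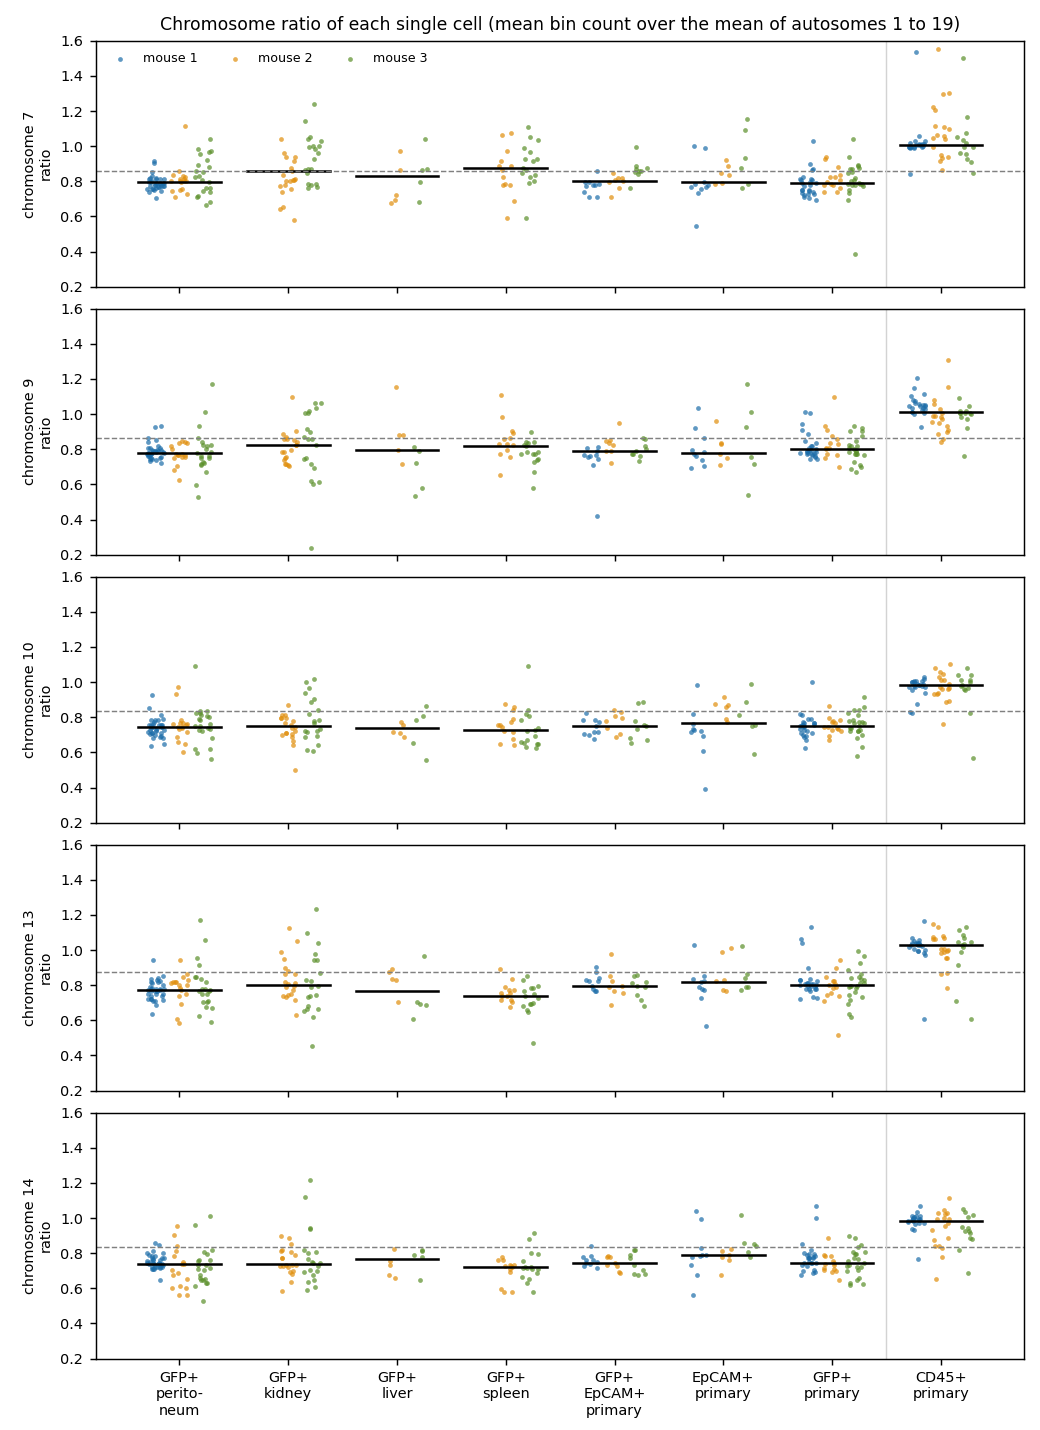
Ratio of each of the 5 chromosomes to the cell's autosomal mean, 1 point per cell coloured by mouse, for the 8 sorts and sites; the bar is the group median and the dashed line 0.85 times the CD45+ median. Tumour-gate medians lie between 0.720 (spleen, chromosome 14) and 0.876 (spleen, chromosome 7), and CD45+ medians between 0.981 and 1.03.

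The low ratio of all 5 chromosomes was present in every sort and at every site. Group medians of chromosome 14 ranged from 0.720 in spleen to 0.789 in EpCAM+ cells, and those of chromosome 10 from 0.729 in spleen to 0.767 in EpCAM+ cells. Chromosome 9 ranged from 0.777 in peritoneum to 0.823 in kidney. Chromosomes 13 and 7 were the most uneven between groups: chromosome 13 ran from 0.740 in spleen to 0.820 in EpCAM+ cells, and chromosome 7 from 0.789 in GFP+ primary cells to 0.876 in spleen. All medians of the tumour gates lay under every CD45+ median.

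Mean ratios per mouse showed the same. Chromosome 10 averaged 0.741, 0.751 and 0.758 in peritoneum cells of mice 1, 2 and 3 and 0.751, 0.752 and 0.759 in their GFP+ primary cells, against 0.968, 0.975 and 0.955 in their CD45+ cells. For chromosome 14 the peritoneum means were 0.753, 0.716 and 0.725 and the GFP+ primary means 0.777, 0.742 and 0.747, against 0.981, 0.933 and 0.926 in CD45+ cells. On both chromosomes the peritoneum and GFP+ primary values lay close together and none reached the CD45+ values. Chromosome 7 averaged 0.791, 0.811 and 0.835 in peritoneum and 0.785, 0.816 and 0.806 in GFP+ primary cells, against 1.02, 1.10 and 1.03 in CD45+ cells, again without overlap with CD45+ cells.

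Most tumour-gate cells had at least 3 of the 5 losses. All 5 were called in 136 of 265 tumour-gate cells (51.3%, exact interval 45.1% to 57.5%), 4 in 64 cells, 3 in 41, 2 in 8, 1 in 9 and none in 7. At least 3 losses were thus present in 241 cells (90.9%), and none in 2.64% (1.07% to 5.37%). The share with all 5 that the shares of the single losses alone would give was not computed. With the cells of mouse 1 left out, all 5 were called in 39.7%, and with those of mouse 3 left out in 61.6%. Where the CD45+ cells of that mouse were also taken out of the reference, the shares were 33.2% and 63.4%. Among CD45+ cells 43 of 53 had none, 4 had 1, 2 had 2, 3 had 3 and 1 had all 5.

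The share of cells with all 5 losses varied between groups. It was 71.6% in peritoneum (53 of 74), 59.3% in GFP+EpCAM+ (16 of 27), 57.1% in GFP+ primary (36 of 63), 40.9% in EpCAM+ (9 of 22), 4 of 10 cells in liver, 27.6% in spleen (8 of 29), and 10 of 40 cells in kidney. Kidney, liver and spleen cells came from mice 2 and 3 alone, and the share also differed between mice. Over all tumour gates it was 63 of 81 cells in mouse 1 (77.8%), 38 of 83 in mouse 2 (45.8%) and 35 of 101 in mouse 3 (34.7%). Within mice 2 and 3, all 5 losses were called in 21 of 39 peritoneum (53.8%), 10 of 40 kidney, 4 of 10 liver, 8 of 29 spleen (27.6%) and 19 of 37 GFP+ primary cells (51.4%).

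Depth and noise moved with these shares. Noise, taken as the median absolute log2 step between neighbouring segments (10 per chromosome) of the other 14 autosomes, had a median of 0.107 in tumour-gate cells of mouse 1, 0.212 in mouse 2 and 0.219 in mouse 3, whose median depths were 1171232, 356758 and 387050 reads. Cells with all 5 losses had a median noise of 0.129 and 778420 reads, those with 4 had 0.257 and 282498, and those with 3 had 0.272 and 351693. Cells with at least 3 losses made up 93.8%, 93.98% and 86.1% of the tumour-gate cells of mice 1, 2 and 3, a narrower spread than that of cells with all 5. Of 74 tumour-gate cells no noisier than the median CD45+ cell (0.120), 56 had all 5 losses (75.7%), 9 had 4, 2 had 3, 2 had 1 or 2 and 5 had none. In the other 191 cells, 80 had all 5 (41.9%). Among the quieter cells the share was 44 of 52 in mouse 1, 7 of 9 in mouse 2 and 5 of 13 in mouse 3, and what part noise has in the difference between mice was not tested.

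**Figure D2:**
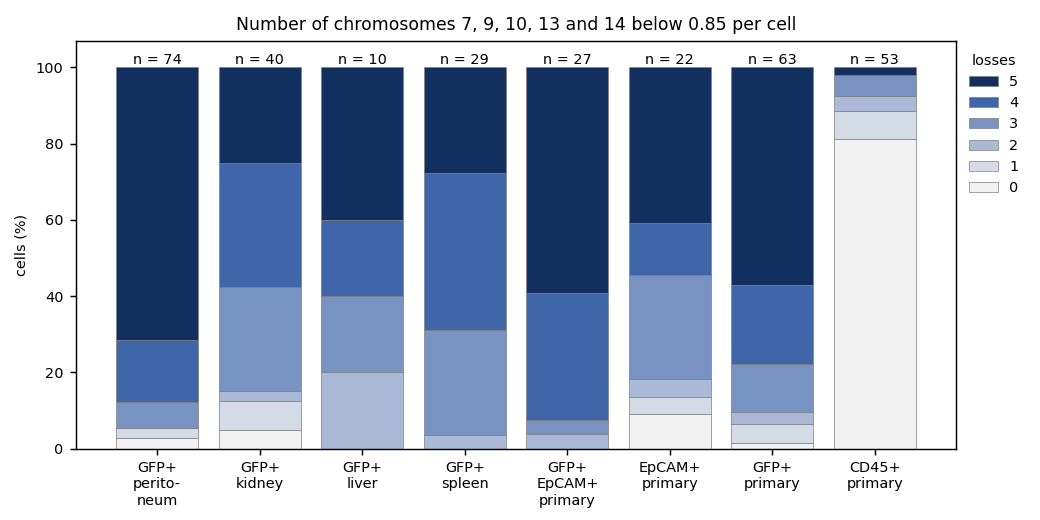
Percentage of cells in each sort or site with 0 to 5 of the 5 chromosomes below a relative ratio of 0.85, with the number of cells over each bar. Peritoneum has the highest share with all 5 (71.6%) and kidney the lowest of the tumour gates (10 of 40 cells), and 43 of 53 CD45+ cells have none.

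Where a loss was absent, it was most often that of chromosome 7. Of the 64 cells with 4 losses, 33 lacked only chromosome 7, 14 only chromosome 9, 8 only chromosome 13, 5 only chromosome 10 and 4 only chromosome 14. The 33 cells came from 6 of the 7 tumour gates: 9 from spleen, 7 from kidney, 6 from peritoneum, 6 from GFP+ primary, 4 from GFP+EpCAM+ and 1 from liver. Their relative ratio of chromosome 7 had a minimum of 0.854, a median of 0.921 and a maximum of 1.10. Some are therefore just above the threshold, with 12 of the 33 under 0.90, and others reach the CD45+ level. Their median noise of 0.353 was above that of the cells with all 5 losses (0.129), and the part of noise in the missing call was not tested.

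Cells that lacked only chromosome 9, 10 or 13 lay nearer the threshold, with median relative ratios of that chromosome of 0.881, 0.893 and 0.898. The 14 lacking chromosome 9 reached at most 0.933, and 9 of them were under 0.90. The 4 cells lacking chromosome 14 had a median of 0.918. After all 5 and the set without chromosome 7, the most frequent sets were that without chromosome 9 (14 cells), chromosomes 10, 13 and 14 alone (9 cells), and the sets of 7, 9, 10 and 14 and of 9, 13 and 14 (8 cells each).

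Pairs of losses were counted to ask whether a cell that lacks one tends to lack another. Among tumour-gate cells, both chromosomes of a pair were lost in 161 cells (7 and 9) to 210 cells (13 and 14). Taking the lower-numbered chromosome of a pair first, the other was lost in 88.5% to 93.4% of the cells that had lost it and in 59.5% to 77.1% of the cells that had not. Across the 265 cells the ratios of 2 chromosomes had a Pearson r of 0.026 (7 and 9) to 0.311 (13 and 14). Within the 241 cells with at least 3 losses, r was −0.221 to 0.118. These correlations are descriptions: both ratios of a cell share its library, depth and autosomal mean, which ties a rise in one to a fall in others.

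A call over a whole chromosome could hide a loss of only a stretch, so each chromosome was divided into 10 segments of equal bin number and each segment called in the same way. A loss that covered at least 8 segments was counted as whole and one of 3 to 7 segments as partial. Whole losses made up 151 of the 228 losses of chromosome 10 (66.2%), 138 of 214 on chromosome 9 (64.5%), 147 of 234 on chromosome 14 (62.8%), 138 of 226 on chromosome 13 (61.1%) and 108 of 182 on chromosome 7 (59.3%). All other losses were partial by this count, and no cell with a loss had only 2 segments or fewer. In the quieter tumour-gate cells whole losses were 56 of 62 on chromosome 9 (90.3%), 55 of 66 on 13 (83.3%), 56 of 68 on 10 (82.4%), 50 of 62 on 7 (80.6%) and 52 of 66 on 14 (78.8%). With the tumour-gate cells of mouse 1 left out, whole losses made up 43.6% on chromosome 7, 52.8% on 9, 58.3% on 10, 55.6% on 13 and 58.4% on 14. With its CD45+ cells also out of the reference they were 35.1%, 36.2%, 50.0%, 50.7% and 35.7%, so part of that fall is a change of the reference. In CD45+ cells 0 of 2, 1 of 3, 2 of 5, 2 of 6 and 3 of 6 of the called losses were whole on chromosomes 7, 9, 10, 13 and 14.

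Tumour-gate medians lay below the CD45+ level in every segment of the 5 chromosomes, although not always under 0.85. The lowest and highest segments had median relative ratios of 0.733 and 0.861 on chromosome 7, 0.732 and 0.801 on chromosome 9, 0.711 and 0.815 on chromosome 10, 0.720 and 0.833 on chromosome 13, and 0.730 and 0.804 on chromosome 14. All 10 segments were under 0.85 on chromosomes 9, 10, 13 and 14, and 9 of 10 on chromosome 7. Single groups departed from this along chromosome 7. In spleen its last segment was at 0.976 and 4 of 10 segments were under 0.85, and in kidney the last segment was at 0.903 with 5 segments under 0.85. Chromosome 14 showed the opposite in spleen, where the lowest segment was at 0.610. Chromosome 13 fell to 0.594 in segment 4 in spleen and stood at 0.946 in segment 1 in EpCAM+ cells.

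**Figure D3:**
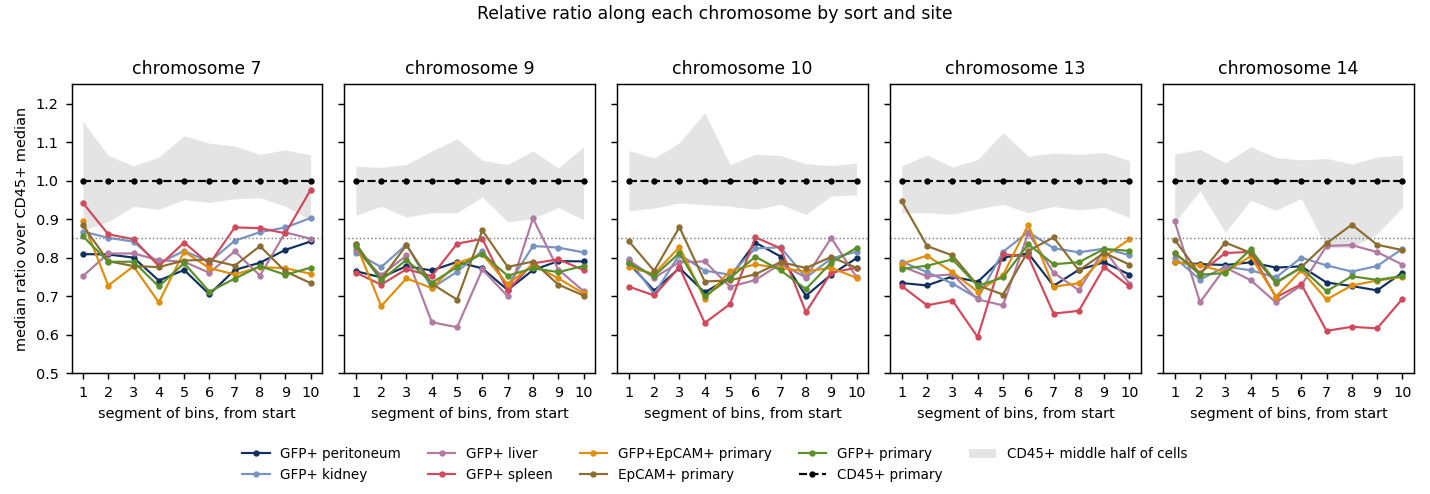
Median relative ratio along the 10 segments of each chromosome for the 8 sorts and sites; the grey band is the interquartile range of CD45+ cells and the dotted line 0.85. Medians over all tumour gates lie between 0.711 and 0.861, and the highest single point is spleen at the end of chromosome 7 (0.976).

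Tumour-gate cells without a called loss were not always free of low stretches. Of 83 cells lacking the loss of chromosome 7, 53 had 3 to 7 low segments, and so had 34 of 51 on chromosome 9, 24 of 37 on chromosome 10, 22 of 39 on chromosome 13 and 15 of 31 on chromosome 14. In CD45+ cells without the loss, 8 of 51, 9 of 50, 6 of 48, 8 of 47 and 8 of 47 did on the same chromosomes. Among the quieter tumour-gate cells the numbers were 2 of 12, 5 of 12, 1 of 6, 2 of 8 and 1 of 8.

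The 7 tumour-gate cells with none of the 5 losses came from 4 groups: 2 EpCAM+, 1 GFP+ primary, 2 peritoneum and 2 kidney cells. Their median relative ratios on the 5 chromosomes were 1.02, 0.995, 1.00, 1.00 and 1.02, that is, at the CD45+ level, and their median noise of 0.103 was low. Chromosome Y has only 3 bins, so its ratio to the autosomes rests on few reads in shallow cells. A Y ratio above 0.1 was found in 6 of the 7 cells and in 8 of the 9 cells with 1 loss. It was found in 34 of 136 cells with all 5 losses, and in 51 of 53 CD45+ cells. Over all tumour gates Y was thus above 0.1 in 14 of 16 cells with at most 1 loss, but sorts differed among cells with all 5. There it was found in 11 of 16 GFP+EpCAM+, 5 of 9 EpCAM+ and 16 of 36 GFP+ primary cells, against 1 of 53 in peritoneum, 0 of 10 in kidney, 1 of 4 in liver and 0 of 8 in spleen.

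RNA of these 7 cells held no common marker profile. The EpCAM+ cell of mouse 1 had 11809 CPM of epithelial markers, including 6917 CPM of Epcam itself, and 95.3 CPM of leukocyte markers. GFP+ primary cell 20 of mouse 1 had 35913 CPM of fibroblast markers, and the EpCAM+ cell of mouse 3 had 2291 CPM of them. Both kidney cells and the peritoneum cell of mouse 3 had 7031, 3289 and 6834 CPM of leukocyte markers, against a median of 81.4 CPM in tumour-gate cells with all 5 losses and 10258 CPM in CD45+ cells. The seventh, peritoneum cell 8 of mouse 1, had no Y reads, 29710 CPM of epithelial markers and relative ratios of 0.854 to 0.945 on the 5 chromosomes. Of these, 0.894, 0.854 and 0.875 on chromosomes 7, 9 and 14 lay within 0.05 of the threshold, and 0.945 and 0.921 on chromosomes 10 and 13 lay further off. Whether such cells are of the line was not tested.

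In the other direction, 1 CD45+ cell had all 5 losses. This cell of mouse 3 had 745933 reads, a noise of 0.248 and no Y reads, and its relative ratios on chromosomes 2, 3 and 5 were 1.49, 1.32 and 1.37. Its RNA held 8899 CPM of leukocyte markers with 8 of the 12 genes detected, and 15.2 CPM of Ptprc, the gene of CD45. The 3 CD45+ cells with 3 losses had 66190 to 105587 reads and a noise of 0.574 to 1.27, above the CD45+ median of 0.120.

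**Figure D4:**
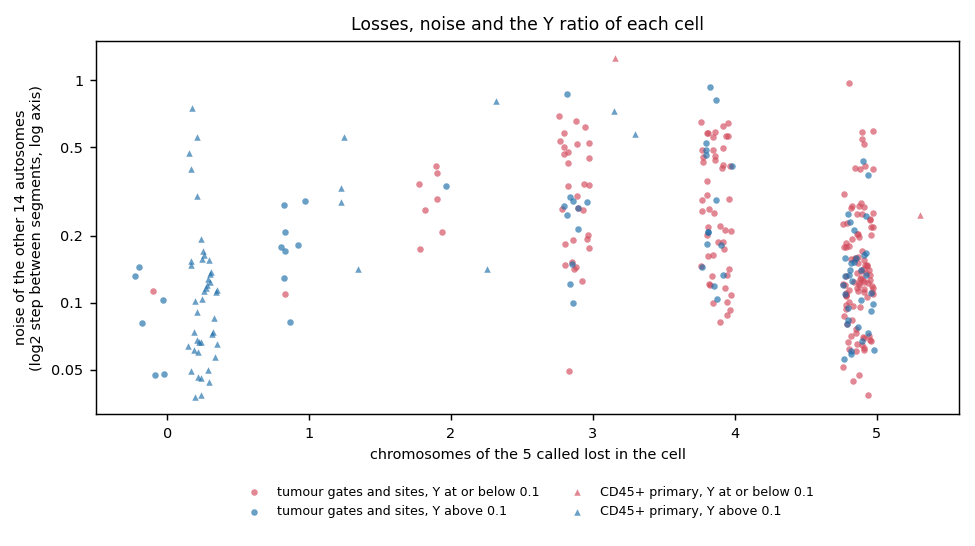
Noise of each cell on a log axis against its number of called losses, with circles for tumour gates and triangles for CD45+ cells and colour for a Y ratio above 0.1. Cells with all 5 losses have a median noise of 0.129 and cells with 4 of 0.257, and of the 7 tumour-gate cells with none 6 have Y above 0.1.

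To ask whether metastases and other sorts differ from GFP+ primary cells on these chromosomes, the mean ratio per mouse was compared between each of 6 groups and GFP+ primary cells. With 3 mice against 3 the exact two-sided permutation test cannot go below p = 0.1, and with 2 against 3 not below 0.2, so no difference could pass 0.05. Of the 30 tests, 0 had p under 0.05, and the smallest Benjamini-Hochberg adjusted p over the 30 was 0.75. In 6 of the 30 comparisons the mice of the 2 groups did not overlap. A lack of overlap has an exact permutation p of 0.1 or 0.2 here, so some of 30 comparisons would separate without a difference. The only p of 0.1 belonged to chromosome 9 in peritoneum, where mean ratios of 0.790, 0.771 and 0.789 in peritoneum lay under those of 0.819, 0.839 and 0.7999 in GFP+ primary cells. The means were 0.783 ± 0.010 in peritoneum and 0.819 ± 0.020 in GFP+ primary cells (SD, n = 3 each; exact permutation p = 0.1).

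Chromosome 7 was higher in kidney and in spleen without overlap between mice. It averaged 0.817 and 0.935 in kidney cells of mice 2 and 3 and 0.855 and 0.898 in their spleen cells, against 0.785, 0.816 and 0.806 in GFP+ primary cells of mice 1, 2 and 3. In either organ the mean was 0.074 above GFP+ primary cells, with an exact permutation p of 0.2, the smallest this design allows, and an adjusted p of 0.75. Within mice, kidney minus GFP+ primary was 0.0005 in mouse 2 (0.8166 against 0.8161) and 0.129 in mouse 3. The lack of overlap in kidney thus rests on a narrow gap in mouse 2, and mouse 3 made almost all of the difference. Set against the mean of GFP+ primary cells over the kept mice, the kidney difference was 0.016 without mouse 3 and 0.140 without mouse 2. The spleen difference was 0.034 when counts of a mouse were summed before the ratio was taken. All 6 kidney cells with at most 2 losses were of mouse 3. With only cells that had at least 1 loss the kidney difference was 0.071. That filter took out the 2 kidney cells with none and kept 3 with 1 loss and 1 with 2. The 3 with 1 loss had relative ratios of chromosome 7 of 0.989, 0.994 and 0.863. In the same order they had 9977, 2041 and 53.5 CPM of leukocyte markers, against a median of 339 CPM in kidney cells. What part the kept cells have in the difference was not tested.

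Chromosome 13 was lower in spleen, at 0.759 and 0.723 in mice 2 and 3, against 0.828, 0.785 and 0.803 in GFP+ primary cells (difference −0.064, exact permutation p = 0.2, adjusted p = 0.75). Chromosome 14 was lower there too, at 0.700 and 0.728, against 0.777, 0.742 and 0.747. Neither pair of groups overlapped. Liver cells did not overlap GFP+ primary cells on chromosome 10, at 0.730 and 0.734 in mice 2 and 3, against 0.751, 0.752 and 0.759. EpCAM+ cells averaged higher than GFP+ primary cells on chromosome 7 (0.857 ± 0.071 against 0.802 ± 0.016; exact permutation p = 0.3) and on chromosome 14 (0.810 ± 0.044 against 0.756 ± 0.019; exact permutation p = 0.2; SD, n = 3 each). The mice of the 2 groups overlapped on both, and without mouse 3 the differences of 0.054 and 0.054 were 0.018 and 0.026.

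Bin by bin, the same groups were compared with GFP+ primary cells by edgeR's quasi-likelihood test on counts summed per mouse, adjusted over all 5000 bins. GFP+EpCAM+ cells had 3 bins with an adjusted p under 0.05 (0.0600%), of which 1 lay on the 5 chromosomes. It starts at position 115338854 of chromosome 13 (mm9), and its level relative to the autosomal mean was 1.42, 1.87 and 3.02 in GFP+EpCAM+ cells of mice 1, 2 and 3, against 0.814, 0.842 and 0.715 in GFP+ primary cells. The log2 difference was 1.41 (SE 0.26, edgeR adjusted p = 0.035). In this comparison no bin of the 5 chromosomes was called with TMM scaling, with limma or without any one mouse. Its neighbours on the chromosome did not pass, and what it holds was not looked up, since no annotation of this build was used.

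The other 5 comparisons had 0 bins called (0%). At an unadjusted p under 0.05 edgeR gave 503 bins for EpCAM+, 67 for peritoneum, 96 for kidney, 685 for liver and 202 for spleen. Of these, 135, 18, 44, 161 and 49 lay among the 1216 bins of the 5 chromosomes. That is 11.1%, 1.48%, 3.62%, 13.2% and 4.03% of those bins, against 10.06%, 1.34%, 1.92%, 13.7% and 4.04% of all bins. The shares were near those of all bins except in kidney, where the excess was not tested. DESeq2 called 3, 0, 0, 57 and 2 bins of all in these comparisons. In kidney 27 of the 44 bins were on chromosome 7 and all 27 were higher than in GFP+ primary cells, and in spleen 21 of the 49 were on chromosome 13 and 0 of these were higher.

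The RNA of the same cells was not used to choose the chromosomes. It was summed per mouse and group over 368 cells that had 500 or more detected genes and 10000 or more counts, and each tumour sort was compared with CD45+ cells over 21948 genes with edgeR. The 4 comparisons share the CD45+ samples, and peritoneum is set against CD45+ cells of the primary tumour, so site and cell type cannot be told apart there. The groups were sorted as different cell types, and leukocyte markers had medians per cell of 44.96 CPM in GFP+ primary, 7.47 in GFP+EpCAM+, 41.4 in EpCAM+ and 89.3 in peritoneum cells, against 10258 CPM in CD45+ cells. Fibroblast markers had medians of 2219 CPM in GFP+ primary and 1979 CPM in peritoneum cells, 4.85 CPM in GFP+EpCAM+ and 75.9 CPM in EpCAM+ cells, against 50.6 CPM in CD45+ cells. The part of cell type in the gene differences was not tested.

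As a group, genes of the 5 chromosomes had lower RNA in the tumour sorts than genes elsewhere. For each chromosome, the median log2 difference of its genes was set against the median over all genes, which was −0.41 for GFP+ primary, −0.84 for GFP+EpCAM+, −0.20 for EpCAM+ and −0.32 for peritoneum, each minus CD45+. Relative to that, chromosome 7 stood at −0.71, −0.73, −0.29 and −0.52 in these 4 comparisons. Chromosome 14 stood at −0.51, −0.61, −0.35 and −0.55, and chromosome 13 at −0.37, −0.36, −0.39 and −0.40. Chromosome 9 stood at −0.34, −0.41, −0.20 and −0.33, and chromosome 10 at −0.29, −0.39, −0.25 and −0.35. All 20 values were below 0, and in each comparison the 5 chromosomes were within the lowest 6 of the 19 autosomes, together with chromosome 4.

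Per mouse the shift was taken in another way, from log2(CPM + 1) differences of genes averaging at least 5 CPM in the 2 samples. The median of a chromosome was set against that of all such autosomal genes. This shift was below 0 in 13 of 15 values for GFP+ primary and 13 of 15 for GFP+EpCAM+. It was below 0 in 15 of 15 for EpCAM+ and 15 of 15 for peritoneum. On chromosome 14 in GFP+ primary cells it was −0.11, −0.23 and 0.06 in mice 1, 2 and 3, nearer 0 than the −0.51 above. On chromosome 7 it was −0.90, −0.70 and −0.91 in GFP+ primary cells of mice 1, 2 and 3, each minus their CD45+ cells. Chromosome 9 in mouse 3 was an exception at 0.06 in GFP+ primary and 0.08 in GFP+EpCAM+ cells, as was chromosome 14 in mouse 3 at 0.06 and 0.03. With only the 3627 genes at a mean of 50 CPM or more, the shifts of the 5 ran from −0.95 to −0.01 in GFP+ primary, −0.91 to −0.23 in GFP+EpCAM+, −0.98 to −0.15 in EpCAM+ and −0.96 to −0.33 in peritoneum cells. The value nearest 0 was that of chromosome 14 in GFP+ primary cells.

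Over all 19 autosomes, chromosomes with a lower median DNA ratio in the group had a lower RNA shift. Pearson's r was 0.867 for GFP+ primary, 0.832 for GFP+EpCAM+, 0.825 for EpCAM+ and 0.905 for peritoneum, and Spearman's rho was 0.856, 0.698, 0.679 and 0.904. With the genes at 50 CPM or more, r was 0.780, 0.801, 0.830 and 0.814. The points are 19 chromosomes of the same libraries, not independent samples, and the RNA sums include cells left out of the DNA ratios. Since reads were divided into exonic and other reads, exonic reads of genomic origin are counted as RNA, and their share was not measured. Across single cells the relation was weak: r between the log2 RNA share of a chromosome and its DNA ratio was −0.007 to 0.240 on the 5 chromosomes over 263 tumour-gate cells.

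**Figure D5:**
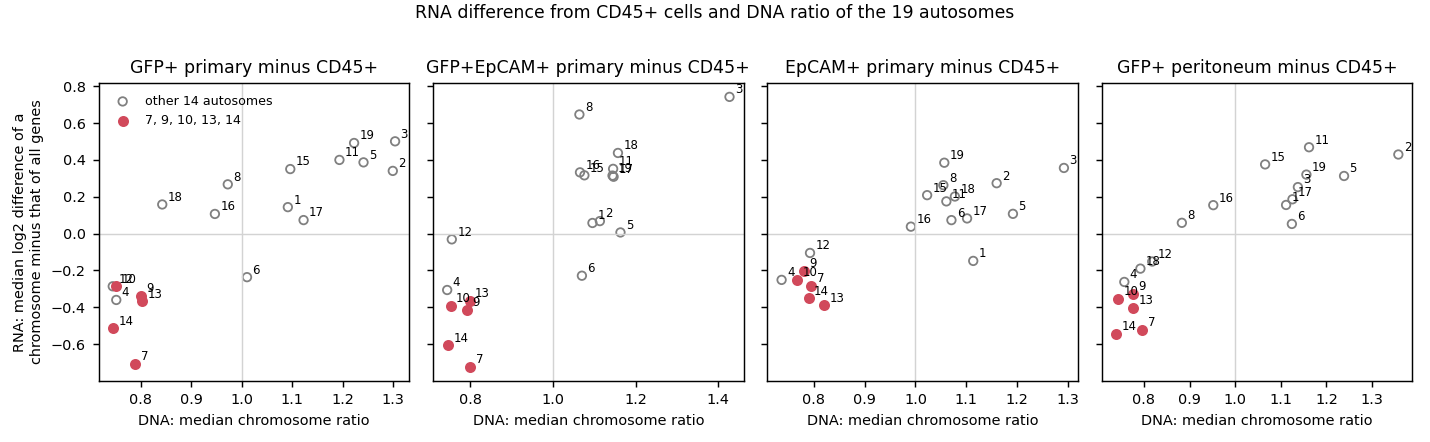
Median log2 RNA difference from CD45+ cells of the genes of each autosome, minus that of all genes, against the median DNA ratio of the chromosome, for 4 tumour sorts; filled points are chromosomes 7, 9, 10, 13 and 14. The 5 lie at the lower left of every panel with chromosome 4, at RNA shifts of −0.73 to −0.20. Chromosome 12 also has a low DNA ratio in every panel, at RNA shifts of −0.29, −0.03, −0.11 and −0.15 for GFP+ primary, GFP+EpCAM+, EpCAM+ and peritoneum.

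Single-gene calls on the 5 chromosomes were also counted. Of the 5822 tested genes of the 5 chromosomes, 76 were lower and 16 higher in GFP+ primary cells (1.31% and 0.275%), against 1.27% lower and 0.574% higher over all genes. In GFP+EpCAM+ cells 144 were lower and 46 higher (2.47% and 0.790%), against 2.43% and 1.44% over all genes. EpCAM+ cells had 76 lower and 7 higher (1.31% and 0.120%), against 1.33% and 0.360%, and peritoneum cells 24 lower and 6 higher (0.412% and 0.103%), against 0.406% and 0.105%. The share of lower genes was near the background in all 4 comparisons, and the share of higher genes was under it in the 3 primary sorts and near it in peritoneum. Leaving out a mouse lowered the calls on the 5 chromosomes in GFP+ primary, GFP+EpCAM+, EpCAM+ and peritoneum cells to 52, 78, 39 and 24 without mouse 1, to 27, 60, 26 and 16 without mouse 2, and to 6, 7, 4 and 2 without mouse 3. A single cell gave 63.2% of the EpCAM+ sum of mouse 2.

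Among the higher genes were matrix genes of chromosomes 7, 10 and 14 in the GFP+ sorts. Serpinh1 (chromosome 7), a chaperone of collagen, had 68.8, 490 and 316 CPM in GFP+ primary and 87.2, 645 and 443 CPM in peritoneum cells of mice 1, 2 and 3, against 1.77, 0.891 and 1.59 CPM in CD45+ cells (log2 differences 7.72, SE 1.73, edgeR adjusted p = 0.017, and 7.76, SE 1.73, adjusted p = 0.029). Lum (chromosome 10), a proteoglycan of the collagen matrix and one of the fibroblast markers above, had 209, 2815 and 1639.9 CPM in GFP+ primary cells, against 2.49, 4.59 and 6.87 CPM in CD45+ cells. Groups did not overlap for either gene. Col6a2 (chromosome 10), a collagen chain, and Loxl2 (chromosome 14), which crosslinks collagen, were also called higher in GFP+ primary cells, by 7.54 and 6.57 on the log2 scale. With the mouse as a block Loxl2 was not called (edgeR adjusted p = 0.055). Dcn (chromosome 10), another matrix proteoglycan, was higher in peritoneum cells by 7.68.

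In the EpCAM sorts other genes led. Clu (chromosome 14), a secreted chaperone, had 8126, 7795 and 7343 CPM in GFP+EpCAM+ and 5740.3, 8449.6 and 985 CPM in EpCAM+ cells, against 56.2, 40.9 and 33.2 CPM in CD45+ cells (log2 differences 7.81, SE 1.34, edgeR adjusted p = 0.0021, and 6.61, SE 1.27, adjusted p = 0.0083). It was still called without mouse 3 in both sorts (adjusted p = 0.0051 and 0.018). Golm1 (chromosome 13), a Golgi membrane protein, had 1025, 1113 and 1043 CPM in EpCAM+ cells, against 13.4, 30.3 and 10.2 CPM in CD45+ cells, a log2 difference of 5.52. Dmbt1 (chromosome 7), a mucosal scavenger receptor, and Mmp7 (chromosome 9), a matrix metalloproteinase of epithelia, rose in GFP+EpCAM+ cells by 6.57 and 8.51. These genes lie on chromosomes called lost in most cells of the same sorts. RNA above that of CD45+ cells in every mouse was a condition for naming them, so it is not a result.

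Among the lower genes named by the rule were genes known from leukocytes. Lyz2 (chromosome 10), the lysozyme of myeloid cells, had 0.543, 5.11 and 9.41 CPM in GFP+ primary cells, against 22170, 12531 and 8657 CPM in CD45+ cells (log2 difference −11.32, edgeR adjusted p = 0.0043). Nkg7 (chromosome 7), a protein of cytotoxic granules, had 0.118, 0.0535 and 0.190 CPM, against 722, 761 and 352 CPM. Cd83 (chromosome 13), a surface protein of activated antigen-presenting cells, was lower in all 4 comparisons, with log2 differences of −10.85 in GFP+ primary, −11.99 in GFP+EpCAM+, −10.48 in EpCAM+ and −12.12 in peritoneum cells. Lilrb4a (chromosome 10), an inhibitory leukocyte receptor, was lower in GFP+ primary, GFP+EpCAM+ and EpCAM+ cells (−11.57, −12.07 and −11.90). Acod1 (chromosome 14), which makes itaconate in macrophages, was lower in GFP+ primary, EpCAM+ and peritoneum cells (−11.86, −11.31 and −12.25). Its CD45+ values were 2.59, 861 and 4902 CPM in mice 1, 2 and 3. In mouse 1 the 3 sorts had 1.46, 2.04 and 1.76 CPM, so the large difference was in mice 2 and 3 only. Without mouse 3 Acod1 was not called (edgeR adjusted p = 0.198 to 0.278). Of 68 gene and comparison pairs named by the rule for leading genes, 29 higher and 39 lower, 9 were still called without mouse 3, namely Nkg7, Mmp12, Lyz2, Tyrobp, Ccrl2 and Clu in 1 or 2 comparisons each.

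Cancer genes of the 5 chromosomes were read from a list of 76, all of which were tested. In GFP+ primary cells 1 was higher and 0 lower, in GFP+EpCAM+ cells 2 higher and 1 lower, in EpCAM+ cells 0 higher and 1 lower, and in peritoneum cells 0 and 0. Over all genes the shares higher and lower were 0.574% and 1.27% in GFP+ primary, 1.44% and 2.43% in GFP+EpCAM+, 0.360% and 1.33% in EpCAM+, and 0.105% and 0.406% in peritoneum cells, so counts of 0 to 2 in 76 are near the background. The list's median log2 difference was 0.55, 0.06, −0.15 and 0.02 in these comparisons, above the median of all genes in each. Ccnh (chromosome 13), which encodes cyclin H of the kinase that activates cell cycle kinases, had 182, 154 and 67.1 CPM in GFP+ primary and 31.6, 199 and 114 CPM in GFP+EpCAM+ cells, against 1.39, 1.14 and 0.275 CPM in CD45+ cells (log2 differences 7.12, SE 1.92, edgeR adjusted p = 0.044, and 7.28, SE 1.94, adjusted p = 0.030). Groups did not overlap.

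Bmp4 (chromosome 14), a secreted growth factor, had 30.2, 138 and 45.3 CPM in GFP+EpCAM+ cells, against 1.197, 0.334 and 0.220 CPM in CD45+ cells (log2 difference 7.64, SE 2.07, edgeR adjusted p = 0.032). Birc2 (chromosome 9), an inhibitor of apoptosis, had 1.09, 1.43 and 13.3 CPM in GFP+EpCAM+ and 5.44, 2.65 and 3.24 CPM in EpCAM+ cells, against 844, 3.31 and 640 CPM in CD45+ cells. It passed at adjusted p = 0.043 and 0.047, although mouse 2 of the CD45+ sort lay as low as the tumour sorts, and with the mouse as a block it was not called in EpCAM+ cells (edgeR adjusted p = 0.0544). Of these 5 calls of Ccnh, Bmp4 and Birc2, 0 held without mouse 3, where adjusted p was 0.177 to 0.373, and 0 without mouse 2. Without mouse 1 only that of Ccnh in GFP+EpCAM+ cells held (edgeR adjusted p = 0.0471).

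Other listed genes with the highest RNA did not pass. Ctnnb1 (chromosome 9), which encodes β-catenin, had 1090.0, 782 and 885 CPM in GFP+EpCAM+ cells, against 110, 109 and 164 CPM in CD45+ cells (log2 difference 3.01, edgeR adjusted p = 0.089). Btg1 (chromosome 10), an antiproliferative gene, had 220, 192 and 76.2 CPM in peritoneum cells, against 1282, 1399.6 and 2594 CPM in CD45+ cells (−4.19, adjusted p = 0.065). The groups of both genes lay apart, Ctnnb1 above and Btg1 below CD45+ cells, although both chromosomes were low. Ccnd1 and Mki67 (chromosome 7), a G1 cyclin and a proliferation marker, overlapped between groups in all 4 comparisons, with adjusted p from 0.524 to 0.915. So did Rhoa (chromosome 9), Bub3 (chromosome 7) and Dek (chromosome 13).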

How the data were processed

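The submitters' processing notes take exonic reads as RNA and nonexonic reads as DNA, and name STAR, kallisto, Bowtie 1.0 and build mm9 with no role for each. The authors deposited counts in 5000 bins for the DNA and expected counts of each gene for the RNA. Sums of expected counts were rounded to whole numbers. Genes were placed on chromosomes by symbol in a RefSeq table of GRCm38.p6 (99.4% matched), none of whose coordinates are used. Rows of 92 ERCC spike-ins (0.000348% of counts) and 4 rows of repeated symbols were left out.

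Cells needed 50000 DNA reads. Noise is the median absolute log2 step between neighbouring segments (10 per chromosome) of the other 14 autosomes, and a Y ratio above 0.1 counts as present. Among 2946 pairs of libraries of the same group and mouse, 2 pairs had a chi-square per degree of freedom under 1, and the next lowest was 1.61. The 6 bulk libraries enter no comparison.

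Bins and genes were tested with edgeR 4.0.16 in 1 fit over the 8 groups, without a block for the mouse, with autosomal totals as library sizes for bins and TMM for genes, and Benjamini-Hochberg adjustment at 0.05 over all bins or genes. The biological coefficient of variation was 0.212 for bins and 1.14 for genes. Both fits were tested on simulated data. Single values were compared over mice by exact permutation (SciPy 1.17.1). Tools were R 4.3.3, limma 3.58.1, DESeq2 1.42.0, Python 3.11.15, numpy 2.4.6 and pandas 2.3.3. Intervals on shares of cells are exact binomial intervals.

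Mouse numbers pair samples of the same animal. Deviations from the group means had a median correlation of 0.191 between DNA sums of the same mouse (−0.470 to 0.597) and −0.0956 between mice, and for RNA 0.049 (−0.178 to 0.366) and −0.0305.

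The chromosomes, gene lists and tests were chosen with earlier results of these data known. Named genes are those of a written list of 76 cancer genes that were called or among the 3 per chromosome with the highest mean CPM. Added to them are, per chromosome, comparison and direction, at most 2 called genes of largest change, a mean of at least 10 CPM and the same direction in every mouse, leaving out predicted genes. Tmem254c, Mrgpra2b, Bcl2a1a, Bcl2a1d and Ctla2a, which that rule also named, have near-identical copies and their counts are uncertain.

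The alternatives were other loss thresholds, ratios, filters, segments, scalings, DESeq2, limma, the mouse as a block and fits without 1 mouse. Restricting cells by noise and genes to 50 CPM, and leaving out a mouse with the CD45+ reference of all mice kept, were added after the data were seen.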

Additional observations from a re-analysis of the deposited data

Results flagged for a closer look

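On chromosomes 13 and 14 some groups departed from GFP+ primary cells in opposite directions in every mouse that had both. Each value given is the difference between the mean effects of 2 groups, an effect being the group's mean ratio minus that of GFP+ primary cells of the same mice. These differences were not tested. On chromosome 13, kidney was above and peritoneum and spleen below GFP+ primary cells, and the effects differed by −0.0545 for peritoneum against kidney and by 0.085 for kidney against spleen. On chromosome 14, EpCAM+ and kidney cells were above and GFP+EpCAM+, peritoneum and spleen cells below GFP+ primary cells. The effects there differed by −0.0624 for GFP+EpCAM+ against EpCAM+, −0.0313 for GFP+EpCAM+ against kidney and 0.0788 for EpCAM+ against peritoneum. They differed by 0.0852 for EpCAM+ against spleen, −0.0476 for peritoneum against kidney and 0.0541 for kidney against spleen. Kidney and spleen were sampled in 2 mice, and all effects share the GFP+ primary cells. Effects of the other groups average mice 1, 2 and 3, so their differences from kidney or spleen set unlike mice side by side. On chromosome 13 the peritoneum effect was −0.0565, −0.0029 and −0.0079 in mice 1, 2 and 3, and mouse 1 has no kidney cells.

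Bulk libraries, which entered no comparison, held the same low ratios. The mean relative ratio of the 5 chromosomes was 0.771 in bulk GFP+ primary cells of mouse 1, 0.768 in those of mouse 2 and 0.772 in bulk GFP+ peritoneum cells of mouse 1, with all 5 chromosomes under 0.85 in each, against 1.00 in bulk CD45+ cells of mouse 1. Bulk cells sorted as GFP-negative from the primary tumour of mouse 1 stood at 0.892, with 1 of the 5 under 0.85, at a depth of 19523 reads. Bulk GFP-negative peritoneum cells stood at 0.967 with 0 of the 5 under 0.85.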

How the results depend on the processing

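No value changed direction under any alternative run. With a loss threshold of 0.80, losses of chromosomes 7, 9, 10, 13 and 14 were called in 51.3%, 61.1%, 72.1%, 67.2% and 72.5% of tumour-gate cells and all 5 in 18.1%. With 0.90 they were called in 81.1%, 88.7%, 93.2%, 89.4% and 92.8%, and all 5 in 67.9%. With the 5 chromosomes left out of the denominator the values were 81.9%, 88.7%, 93.96%, 89.4% and 93.6%, and 70.6% for all 5. Median bin counts gave 76.98% for chromosome 13 and 43.4% for all 5. The quieter cells gave 83.8% for chromosome 7, 91.9% for chromosome 10, 75.7% for all 5 and 6.76% for none. Whole losses made up 42.3%, 46.3%, 41.2%, 43.4% and 42.7% with 9 of 10 segments required, 75.3%, 74.8%, 85.5%, 73.9% and 73.9% with 5 segments, and 80.6%, 90.3%, 82.4%, 83.3% and 78.8% in the quieter cells. Without a mouse, its CD45+ cells taken out of the reference too, losses were called in 64.8% to 81.7%, 70.7% to 84.8%, 81.5% to 90.2%, 80.4% to 87.4% and 77.7% to 92.1%, all 5 in 33.2% to 63.4% and none in 1.22% to 3.30%. Whole losses were then 35.1% to 72.03%, 36.2% to 71.4%, 50.0% to 76.4%, 50.7% to 65.4% and 35.7% to 69.2%. With the reference of all mice kept, an alternative chosen after seeing the data, losses were called in 59.8% to 81.1%, 78.3% to 82.3%, 82.1% to 90.2%, 83.2% to 86.8% and 86.8% to 90.9%, all 5 in 39.7% to 61.6% and none in 1.83% to 3.85%. Whole losses were then 43.6% to 70.2%, 52.8% to 72.5%, 58.3% to 70.3%, 55.6% to 65.8% and 58.4% to 67.1%.

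With a replicate block for the mouse, the differences of EpCAM+ on chromosomes 7 and 14, kidney and spleen on 7 and spleen on 13 were 0.054, 0.054, 0.065, 0.065 and −0.053, with paired p of 0.25, 0.25, 0.5, 0.5 and 0.5, and 0 of the 30 tests passed in any alternative. Bins of the 5 chromosomes called in GFP+EpCAM+ numbered 0 with TMM, 2 with the block, 5 with DESeq2 and 0 with limma. DESeq2 called 1 in EpCAM+ and 11 in liver. Without a mouse 0 were called in any comparison except spleen (0 to 1). Genes of the 5 chromosomes called in GFP+ primary, GFP+EpCAM+, EpCAM+ and peritoneum numbered 516, 1111, 665 and 451 with DESeq2 and 35, 60, 42 and 17 among genes of at least 50 CPM. They numbered 148 in GFP+ primary and 129 in peritoneum with limma, 51 in peritoneum without a filter, and 6 to 52, 7 to 78, 4 to 39 and 2 to 24 without a mouse (27, 60, 26 and 16 without mouse 2). All 200 alternative values of the RNA shift of a chromosome stayed below 0 (−0.98 to −0.01). The causes of these changes were not tested. Calls of a loss are limited by depth, since the shallowest cell kept had 1498 reads on chromosome 14, and 2 mice per organ limit every contrast of kidney, liver and spleen.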

Other observations

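Counts assigned to a single gene led the RNA counts of chromosome 9 in many cells. This gene is Lars2, which encodes the mitochondrial leucyl-tRNA synthetase. Counts assigned to it were a median of 28.5% of all RNA counts in liver cells and 8.69% in kidney cells. The medians were 0.494% in spleen, 0.165% in peritoneum and 0.116% in GFP+ primary cells, against 0.050% in CD45+ cells. Whether these counts are transcripts of Lars2 was not tested. Its highest share in a cell was 44.8%, in kidney, and the highest in a CD45+ cell was 15.9%. All genes of chromosome 9 together took a median of 13.9% of the RNA counts of autosomal genes in kidney cells, against 4.89% in CD45+ cells. With the Lars2 share of all RNA counts subtracted, the medians were 4.92% and 4.71%, and 7.57% in liver cells. These values are approximate, since the 2 shares have different totals. Kidney, liver and spleen cells enter no RNA test of the report, but are among the 263 cells of its single-cell correlation of RNA and DNA.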
